A study of Homo sapiens with 4 samples.

Results

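MiR-338 is a microRNA (miRNA) hairpin with 2 arms, hsa-miR-338-5p and hsa-miR-338-3p. Both arms were taken by name from the tables of miRNA read counts, and they are 2 of the 1733 mature miRNAs listed there. Hsa-miR-338-5p had been picked out because its level was higher in stem-like cells than in parent cells in these same libraries. Its changes, and those of the other arm in the same comparisons, are therefore given as a description with no test.

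Small RNA of 4 cell populations was sequenced, with 1 library each and no replicates. Hep3B and Huh7 are established human hepatoma lines (HCC cells). Hep3B-C and Huh7-C are hepatic cancer stem cells (HCSCs), stem-like cells that the study cultured from each line, and the agents used for that culture are not given in the sources used here. Each HCSC library was compared with the library of its own parent line, and every interval below holds counting error only, so that nothing is known of variation between cultures.

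A miRNA gene is transcribed into a hairpin, from which nucleases cut a short duplex. One strand of the duplex, the guide, is usually kept in the Argonaute protein and the other, the passenger, is mostly lost. The kept strand recognises target mRNAs mainly through bases 2 to 8, the seed, so that the arms of one hairpin pair with different targets. MiR-338 is encoded within an intron of AATK, a kinase gene with high expression in the nervous system, and is best known from oligodendrocyte differentiation. Its 3p arm has also been studied in liver cancer cells, where it has mostly been described as a suppressor of invasion.

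The sequences of both arms are shown because their seeds differ, and those of the miRNA on the opposite strand because it overlaps them (RefSeq, GRCh38.p14, seed in capitals).
hsa-miR-338-5p: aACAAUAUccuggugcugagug
hsa-miR-338-3p: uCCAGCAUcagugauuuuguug
hsa-miR-3065-5p: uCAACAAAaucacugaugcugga
hsa-miR-3065-3p: uCAGCACCaggauauuguuggag

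Of the 2370 mature miRNA names in the RefSeq table, no other name shared the seed of hsa-miR-338-5p (ACAAUAU) or that of hsa-miR-338-3p (CCAGCAU). The hairpin MIR338 lies on the minus strand at chr17:81125883-81125949 (GRCh38). It is 67 bases long and falls in intron 7 of the 14-exon AATK transcript AATK-201 (GENCODE release 29), with no overlap with an exon of any AATK transcript. MIR3065 lies at chr17:81125877-81125955 on the plus strand and covers all 67 bases of MIR338. The hairpins are printed below with their mature arms in capitals, to show that the loop and both arms of one are the complement of the other.
MIR338: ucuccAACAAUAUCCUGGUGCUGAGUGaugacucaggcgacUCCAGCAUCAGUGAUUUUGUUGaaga
MIR3065: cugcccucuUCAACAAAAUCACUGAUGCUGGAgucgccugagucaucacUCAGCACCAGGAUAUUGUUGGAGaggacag

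Counts of all miRNAs summed to between 1739278 (Hep3B) and 5741567 (Huh7) per library. They made up 10.4% of the total reads of Hep3B but 35.2% of those of Hep3B-C, 54.1% of Huh7 and 37.8% of Huh7-C, so the Hep3B library stood apart. TPM here is the number of reads in 1000000 total reads. The study names TPM as its unit without giving the denominator in the sources used here, and the library totals it lists were taken for it. A TPM ratio therefore carries the miRNA share with it. Levels are also given in miRNA RPM, the same with a library's own miRNA reads in place of its total reads. A miRNA entered the background of a pair when 1 of its 2 libraries held 10 counts or more. The median log2 change of TPM was 1.46 over the 475 such miRNAs of the Hep3B pair and -0.67 over the 431 of the Huh7 pair, whereas in miRNA RPM it was -0.31 and -0.15. As a check of the tissue, 4 hepatocyte miRNAs (miR-122, miR-192, miR-194 and miR-885-5p) summed to between 11008 and 115636 TPM. Of their counts, miR-192 gave 179088 of 184745 in Hep3B and 386372 of 548052 in Hep3B-C. It gave 706923 of 1228317 in Huh7 and 469706 of 638867 in Huh7-C. MiR-885-5p had 2 counts in Huh7 and 0 in Huh7-C. MiR-122, the defining miRNA of hepatocytes, had 397 counts in Hep3B against 149892 in Hep3B-C, but 489443 in Huh7 against 144814 in Huh7-C (log2 change of TPM 8.68 and -1.77, respectively). The 5 blood miRNAs summed to 74.9 TPM in Huh7, with 773 of their 796 counts from miR-451, and to at most 0.477 TPM in the other libraries. Hsa-miR-144 was at 0 in every library, while its other arm, hsa-miR-144*, which was not on the list, had reads in each. The 4 mesenchymal miRNAs ranged from 1.77 TPM in Huh7-C to 111 TPM in Hep3B-C. Of their counts, miR-143 alone gave 1706 of 1711 in Hep3B-C and 427 of 428 in Hep3B. The part of these differences in the miR-338 values was not tested.

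MiR-338 was a low-abundance miRNA in every library, and both arms had their highest level in Hep3B-C. Hsa-miR-338-5p had 24 counts in Hep3B against 241 in Hep3B-C, while Huh7 had 24 and Huh7-C had 84. These counts equal 1.43 TPM (95% exact Poisson interval 0.916 to 2.13), 15.6 TPM (13.7 to 17.7), 2.26 TPM (1.45 to 3.36) and 7.84 TPM (6.25 to 9.71). In TPM, both HCSC libraries were above both parent libraries, and the intervals of the groups did not overlap. In miRNA RPM those of Huh7-C and Hep3B overlapped (log2 0.59, interval -0.08 to 1.31). In cells measured in bulk, fewer cells of a type and less RNA per cell cannot be told apart.

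Hsa-miR-338-3p had 26 counts in Hep3B against 121 in Hep3B-C, while Huh7 had 15 and Huh7-C had 35. In the same order its level was 1.55 TPM (interval 1.01 to 2.27), 7.84 TPM (6.50 to 9.36), 1.41 TPM (0.790 to 2.33) and 3.27 TPM (2.28 to 4.54). Hep3B-C was high and the parent libraries were low. The interval of Huh7-C touched that of Huh7 by a small margin. By rank among the miRNAs detected in a library, the 5p arm stood at place 278 of 674 in Hep3B, 183 of 773 in Hep3B-C, 310 of 712 in Huh7 and 183 of 664 in Huh7-C. The 3p arm stood at places 273, 226, 364 and 239. Both arms therefore stood nearer the top of the list in each HCSC library than in its parent. These places need no library size. The 5p arm was chosen for a higher level in HCSCs, so its places only describe that choice.

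**Figure D1:**
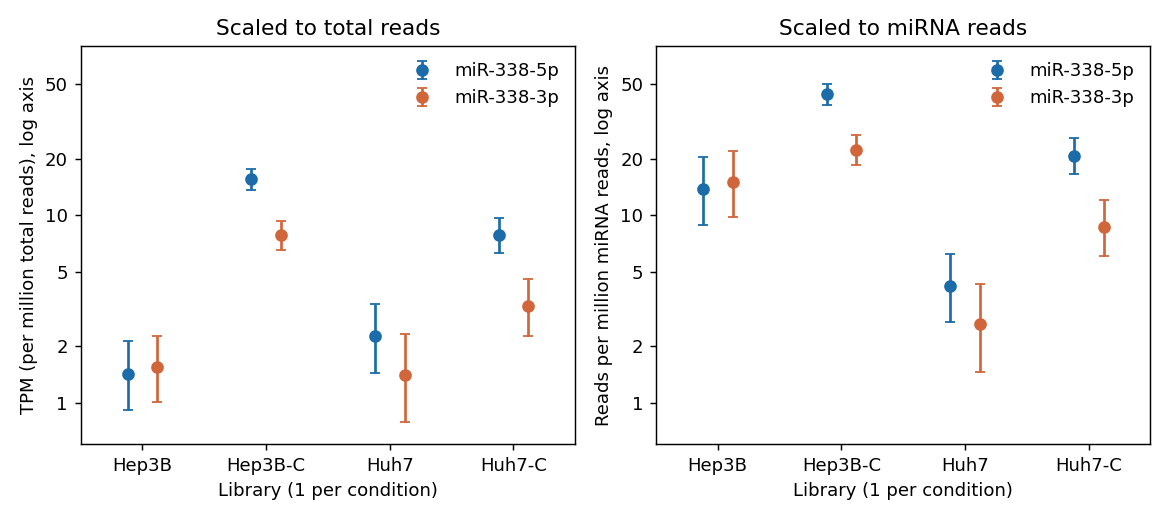
Level of miR-338-5p (blue) and miR-338-3p (orange) in each of the 4 libraries, as TPM (left) and as miRNA RPM (right), both on a log axis. Bars are 95% exact Poisson intervals of the count. The 5p arm ran from 1.43 TPM in Hep3B to 15.6 TPM in Hep3B-C, and Hep3B moved up against the other libraries when miRNA reads were the base.

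The order of the levels depended on the base. In TPM, hsa-miR-338-5p was highest in Hep3B-C, followed by Huh7-C, Huh7 and Hep3B. The step from Hep3B-C to Huh7-C was 1.99-fold (log2 0.99, 95% exact interval 0.63 to 1.37) and that from Huh7-C to Huh7 was 3.47-fold. Huh7 and Hep3B, the lowest neighbours, did not differ beyond counting error (log2 0.66, interval -0.22 to 1.54). Hsa-miR-338-3p had the order Hep3B-C, Huh7-C, Hep3B and Huh7, and again the parent lines did not differ beyond counting error (log2 0.13, interval -0.84 to 1.16).

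In miRNA RPM, hsa-miR-338-5p stood at 13.8 in Hep3B against 44.4 in Hep3B-C, while Huh7 had 4.18 and Huh7-C had 20.8. Hsa-miR-338-3p stood at 14.9, 22.3, 2.61 and 8.65 in the same order. On this base Hep3B was 3.30-fold above Huh7 for the 5p arm (log2 1.72, interval 0.84 to 2.60). The 3p arm was 0.175 times as high in Huh7 as in Hep3B (log2 -2.52, interval -3.54 to -1.55). Hep3B-C exceeded Huh7-C on both bases and for both arms, by 2.14-fold for the 5p arm and 2.58-fold for the 3p arm in miRNA RPM. The parent lines thus differed beyond counting error in miRNA RPM, whereas in TPM the intervals took in 0.

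Within the Hep3B pair, hsa-miR-338-5p was 10.9-fold higher in Hep3B-C in TPM (log2 fold-change 3.45, 95% exact conditional interval 2.84 to 4.12), and hsa-miR-338-3p was 5.06-fold higher (2.34, interval 1.72 to 3.01). Both arms were past 2-fold, as were 67.4% of the 475 miRNAs tested, while 5.05% were at least 2-fold lower. The 5p arm was exceeded by 42 of the 475 miRNAs and the 3p arm by 124. Relative to the median miRNA, the 5p arm was 1.99 and the 3p arm 0.88 higher on the log2 scale. In miRNA RPM, 17.7% of miRNAs were at least 2-fold higher in Hep3B-C and 25.1% lower. On that base the 5p arm was still among them (log2 1.69, interval 1.08 to 2.36). The 3p arm was not, and its interval took in 0 (log2 0.58, interval -0.04 to 1.25). With TMM and DESeq2 library sizes, the shares were 24.8% and 29.1% higher and 17.7% and 14.5% lower, and the log2 changes were 2.03 and 2.27 for the 5p arm and 0.93 and 1.16 for the 3p arm.

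Within the Huh7 pair, the 5p arm was 3.47-fold higher in Huh7-C in TPM (log2 fold-change 1.79, interval 1.13 to 2.51) and the 3p arm 2.31-fold higher (1.21, interval 0.30 to 2.19). Of the 431 miRNAs tested, 7.42% were at least 2-fold higher and 38.5% at least 2-fold lower in Huh7-C. Here 14 miRNAs had a larger increase than the 5p arm and 25 a larger one than the 3p arm. Relative to the median miRNA, the arms were 2.47 and 1.88 higher. In miRNA RPM the log2 changes were 2.31 (interval 1.64 to 3.03) and 1.73 (interval 0.82 to 2.71), with 15.3% of miRNAs at least 2-fold higher and 24.8% lower. With TMM and DESeq2 library sizes, the shares were 11.8% and 16.5% higher and 28.8% and 24.1% lower, and the log2 changes were 2.11 and 2.37 for the 5p arm and 1.53 and 1.78 for the 3p arm. Since the 5p arm was chosen from these comparisons, nothing is read from its place among the miRNAs.

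**Figure D2:**
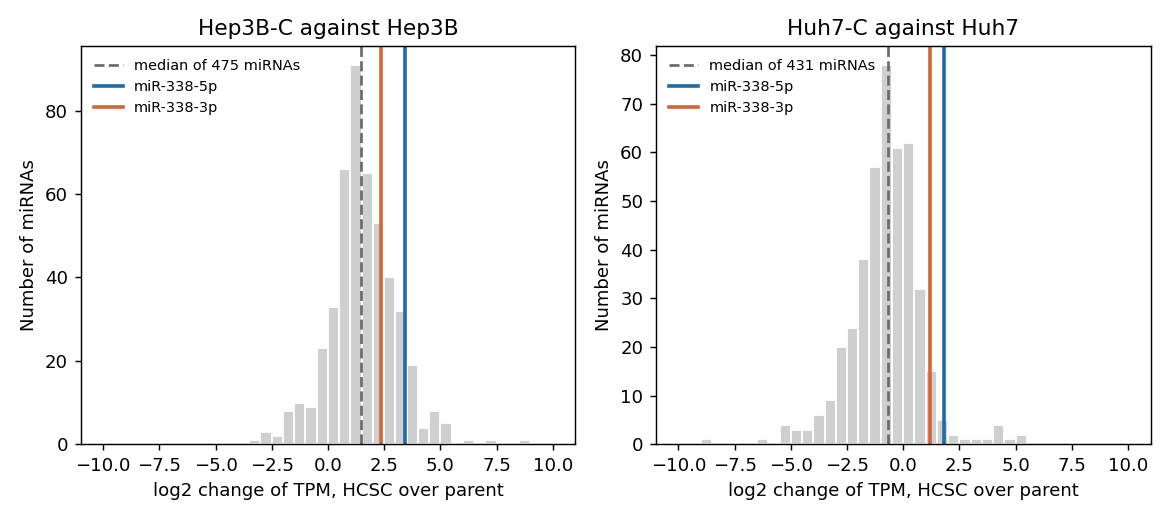
Log2 change of TPM from parent to HCSCs of every miRNA in the background of a pair (grey bars, number of miRNAs), in the Hep3B pair (left, 475 miRNAs) and the Huh7 pair (right, 431 miRNAs). The dashed line is the median, at 1.46 and -0.67, and the coloured lines mark miR-338-5p (3.45 and 1.79) and miR-338-3p (2.34 and 1.21).

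The difference between the lines in the size of these changes depended on the base. In TPM, the log2 change of hsa-miR-338-5p was larger in the Hep3B pair than in the Huh7 pair by 1.65 (interval 0.69 to 2.61). With miRNA reads as the base this difference was -0.63 (interval -1.59 to 0.33). For hsa-miR-338-3p the difference was 1.13 in TPM (interval -0.06 to 2.27) and -1.15 in miRNA RPM (interval -2.34 to -0.01). No order of the lines held on both bases.

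The ratio of the arms needs no library size. Of the reads of both arms, the 5p arm held 48.0% in Hep3B (24 of 50 reads, 95% Clopper-Pearson interval 33.7% to 62.6%) and 66.6% in Hep3B-C (241 of 362, interval 61.5% to 71.4%). It held 61.5% in Huh7 (24 of 39, interval 44.6% to 76.6%) and 70.6% in Huh7-C (84 of 119, interval 61.5% to 78.6%). The 5p arm had more reads than the 3p arm in 3 of the 4 libraries, and in both HCSC libraries the interval lay above an equal share. In both parent libraries the interval took in an equal share, on fewer reads (50 and 39 against 362 and 119). The interval of Huh7 also held the 70.6% of Huh7-C. Taking in an equal share therefore does not by itself set the parents apart from the HCSCs.

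The arms moved in the same direction in each pair, the 5p arm by more. The 5p arm was chosen for its rise in these pairs and the 3p arm was not. A larger 5p change, and with it a higher 5p share in HCSCs, was therefore favoured in advance. In the Hep3B pair the log2 change of the 5p arm exceeded that of the 3p arm by 1.11 (exact conditional interval 0.18 to 2.04). In the Huh7 pair the excess was 0.58 (interval -0.63 to 1.76), and the interval took in 0. Between the parent lines the 5p to 3p ratio differed by a log2 value of 0.79 (Huh7 over Hep3B, interval -0.55 to 2.15), and between the HCSC lines by 0.27 (Huh7-C over Hep3B-C, interval -0.41 to 0.97). These intervals are too wide to show whether the lines differ in arm ratio.

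**Figure D3:**
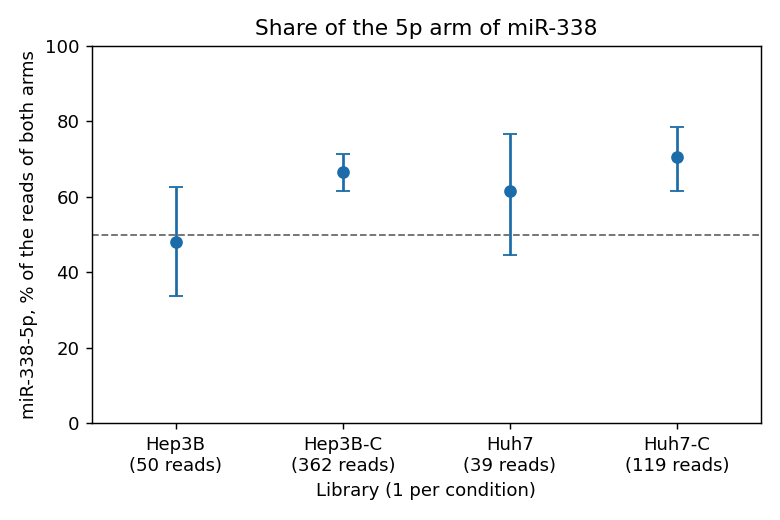
Share of hsa-miR-338-5p among the reads of both arms, in percent, for each library, with the number of reads below its name. Bars are 95% Clopper-Pearson intervals and the dashed line marks equal arms. The share was 48.0% in Hep3B and between 61.5% and 70.6% in the other libraries.

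Among hairpins with both arms at 10 counts or more, few were nearer to equal arms than miR-338. The more abundant arm of miR-338 had 1.08 times the reads of the other in Hep3B, 1.99 times in Hep3B-C, 1.6 times in Huh7 and 2.4 times in Huh7-C. Over hairpins with both arms at 10 counts or more, the median ratio was 8.47 in Hep3B (64 hairpins) and 15.9 in Hep3B-C (93), whereas Huh7 had 11.98 (93) and Huh7-C had 18.6 (66). Only 1, 13, 9 and 9 of these hairpins, in that order, were nearer to equal arms than miR-338. A hairpin entered only with 10 counts in each arm, so few reads left little room for a high ratio. MiR-338 had 50 reads in Hep3B, 39 in Huh7 and 119 in Huh7-C, which held its ratio below the median there in advance. Its nearness to equal arms was therefore partly set by depth, less so in Hep3B-C with 362 reads.

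A difference in change between the arms of a hairpin was common. In the Hep3B pair 34.0% of 97 hairpins had arms at least 2-fold apart in their change, and 28 had a larger difference than miR-338. In the Huh7 pair the share was 35.5% of 93 hairpins, and 54 had a larger difference than the 0.58 of miR-338. The median difference over hairpins was 0.64 and 0.69, respectively. A shift of the size seen for miR-338 was therefore not particular to it.

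**Figure D4:**
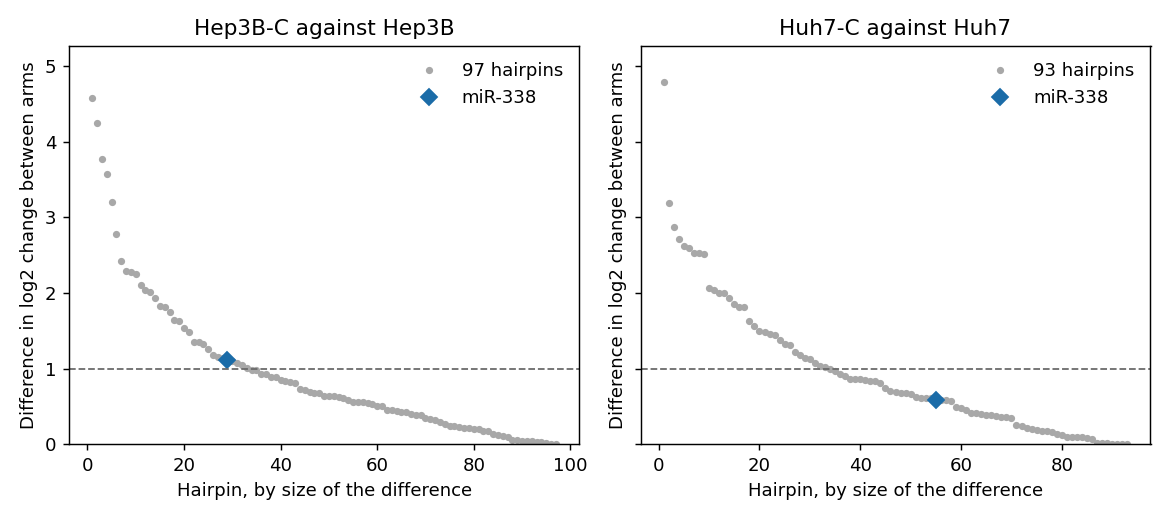
Absolute difference between the arms of a hairpin in their log2 change from parent to HCSCs, with hairpins ordered by size, for the Hep3B pair (left, 97 hairpins) and the Huh7 pair (right, 93 hairpins). Each grey point is a hairpin, the blue diamond is miR-338 (1.11 and 0.58) and the dashed line marks a 2-fold difference.

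MiR-3065 is transcribed from the opposite strand of the same intron. It gave a smaller share of the reads of the overlapping hairpins in both HCSC libraries than in their parents. The other side of that share holds hsa-miR-338-5p, which was chosen for its rise, so a smaller share was favoured in advance. Hsa-miR-3065-5p is complementary to all 22 bases of hsa-miR-338-3p, and hsa-miR-3065-3p to 19 of the 22 bases of hsa-miR-338-5p. Hsa-miR-3065-5p had 10 counts in Hep3B against 3 in Hep3B-C, while Huh7 had 39 and Huh7-C had 16. It was therefore lower in both HCSC libraries. Its log2 change in TPM was -1.62 in the Hep3B pair (interval -4.12 to 0.34) and -1.30 in the Huh7 pair (interval -2.24 to -0.43). In miRNA RPM these values were -3.38 (interval -5.88 to -1.42) and -0.78 (interval -1.72 to 0.09). Hsa-miR-3065-3p had 1, 8, 32 and 20 counts in the same order. It was 8.70-fold higher in Hep3B-C on 1 and 8 counts (log2 3.12, interval 0.22 to 8.59) and had a log2 change of -0.69 in the Huh7 pair (interval -1.57 to 0.16). In the Hep3B pair it was thus higher together with miR-338 in TPM, while in miRNA RPM its values were 1.36 (interval -1.54 to 6.83) and -0.17 (interval -1.06 to 0.68).

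With the arms of each hairpin added, miR-338 had 50, 362, 39 and 119 reads and miR-3065 had 11, 11, 71 and 36, in the order Hep3B, Hep3B-C, Huh7 and Huh7-C. MiR-338 therefore gave 82.0% of the reads of both hairpins in Hep3B (interval 70.0% to 90.6%) and 97.1% in Hep3B-C (interval 94.8% to 98.5%). It gave 35.5% in Huh7 (interval 26.6% to 45.1%) and 76.8% in Huh7-C (interval 69.3% to 83.2%). Huh7 was the only one of the 4 libraries in which the opposite strand gave more reads than miR-338. From parent to HCSCs the log2 ratio of miR-338 to miR-3065 was higher by 2.86 in the Hep3B pair (interval 1.42 to 4.27) and by 2.59 in the Huh7 pair (interval 1.76 to 3.42). This ratio needs no library size, and it was set up after the counts had been seen. MiR-338 includes the arm that was chosen for a higher level in HCSCs, so a higher ratio was favoured in advance. Taken alone, miR-3065 had a log2 change of TPM of 0.12 in the Hep3B pair (interval -1.23 to 1.47). In the Huh7 pair it was -0.99 (interval -1.61 to -0.39). In miRNA RPM these values were -1.64 (interval -2.99 to -0.30) and -0.47 (interval -1.10 to 0.12).

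How the counting treated strand is not given in the sources used here. Without strand, reads of the complementary arms cannot be told apart. The counts of hsa-miR-338-3p and hsa-miR-3065-5p moved in opposite directions in both pairs, and their log2 changes differed by 3.96 in the Hep3B pair (interval 1.84 to 6.51) and by 2.51 in the Huh7 pair (interval 1.19 to 3.85). Those of hsa-miR-338-5p and hsa-miR-3065-3p differed by 0.33 in the Hep3B pair, where 1 count in Hep3B leaves an interval of -5.20 to 3.33. In the Huh7 pair they differed by 2.49 (interval 1.36 to 3.62). Since hsa-miR-338-5p was chosen for its rise, a difference in this direction was favoured in advance.

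**Figure D5:**
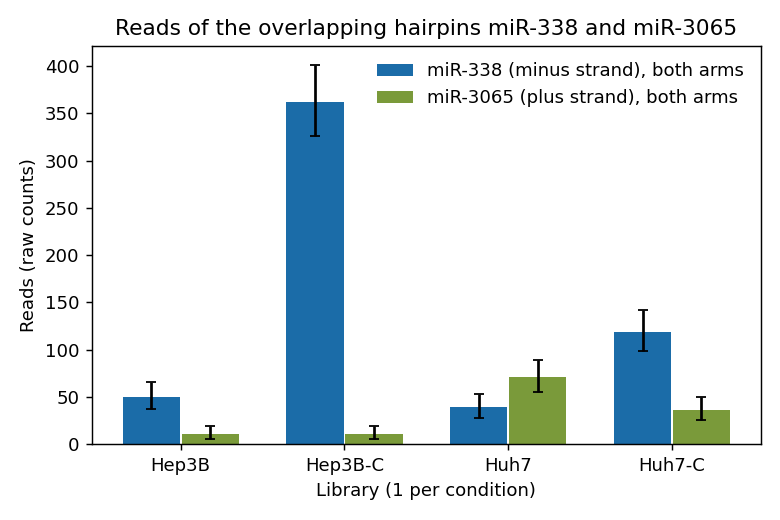
Raw reads of both arms of miR-338 (blue, minus strand) and of both arms of miR-3065 (green, plus strand) in each library, with 95% exact Poisson intervals. MiR-338 had more reads in Hep3B, Hep3B-C and Huh7-C, and miR-3065 had more in Huh7 (71 against 39).

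The other miRNAs listed for AATK were near or at 0. Hsa-miR-1250, in intron 2 of AATK-201 at chr17:81133196-81133308, had 3 counts in Hep3B, 7 in Hep3B-C and 0 in Huh7 and Huh7-C. Hsa-miR-657, which shares intron 7 with MIR338 at chr17:81125276-81125373 on the same strand, had 0 counts in every library. A count of 0 allows up to 3 counts as a one-sided 95% limit, or 0.179 TPM in Hep3B and 0.282 TPM in Huh7. The upper ends of the 95% exact Poisson intervals used for levels were 0.220 and 0.347 TPM. Of the 3 minus-strand hairpins looked at here, MIR338 alone had an arm with 10 counts or more.

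The miRNAs whose levels ran most like those of the arms were found by the root mean square difference of log2 levels, centred on each miRNA's mean over the 4 libraries, among the 265 miRNAs with at least 10 counts in all 4. This measure does not change with the library size. For hsa-miR-338-5p the nearest was hsa-miR-760 (0.29), with 19, 117, 18 and 65 counts in Hep3B, Hep3B-C, Huh7 and Huh7-C. It was followed by hsa-miR-378 (0.48), from an intron of the metabolic coactivator gene PPARGC1B, and by hsa-miR-338-3p (0.52). Hsa-miR-3177-3p (0.53) and hsa-miR-107 (0.57), which is encoded in a pantothenate kinase gene, came next. The median difference over all 265 was 1.46.

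For hsa-miR-338-3p the nearest was hsa-miR-151-3p (0.21), encoded in the focal adhesion kinase gene PTK2, with 38157, 138404, 24070 and 40965 counts in the same order. Hsa-miR-25 (0.28), from the MCM7 intron cluster, hsa-miR-3177-3p (0.37), hsa-miR-183 (0.37) and hsa-miR-15b (0.40) followed. The 5p arm came at place 22 for the 3p arm. With 4 libraries, this likeness is a description of few points, and 15 to 26 reads of an arm in the parent libraries carry a wide counting error.

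MiR-338 is known together with miR-219 and other miRNAs of neural and glial cells, and a list of 10 such miRNAs was set beside it. In each pair, 5 of the 10 entered the background. Hsa-miR-219-1-3p had 31, 186, 115 and 123 counts in Hep3B, Hep3B-C, Huh7 and Huh7-C. It was 6.52-fold higher in TPM in Hep3B-C (log2 2.71, interval 2.15 to 3.30) and 1.06-fold in Huh7-C (log2 0.08, interval -0.29 to 0.46). In miRNA RPM its log2 changes were 0.94 (interval 0.39 to 1.54) and 0.60 (interval 0.22 to 0.98). Hsa-miR-7, a miRNA of neurons and endocrine cells, had 365 counts in Hep3B and 4578 in Hep3B-C (log2 3.77, interval 3.61 to 3.93) while Huh7 and Huh7-C had 4373 and 4375 (log2 -0.01, interval -0.07 to 0.05, and 0.51 in miRNA RPM).

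Hsa-miR-9, a miRNA of neural progenitors, had 154, 844, 9765 and 11349 counts, with log2 changes of TPM of 2.57 (Hep3B pair) and 0.20 (Huh7 pair). In miRNA RPM these changes were 0.81 (interval 0.56 to 1.07) and 0.72 (interval 0.68 to 0.76). The other arm of miR-9, hsa-miR-9*, had 3, 11, 80 and 62 counts. Hsa-miR-128, which is abundant in neurons, had 273, 515, 525 and 268 counts, with log2 changes of TPM of 1.04 (Hep3B pair) and -0.98 (Huh7 pair). With miRNA reads as the base the Hep3B value turned to -0.73. The remaining members, hsa-miR-219-5p, hsa-miR-219-2-3p, hsa-miR-138, hsa-miR-124 and hsa-miR-129-5p, had at most 8 counts, and hsa-miR-124 was at 0 in every library.

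In TPM, the 5 members in the background of the Hep3B pair were all at least 2-fold higher in Hep3B-C, beside 67.4% of the 475 miRNAs tested. In miRNA RPM 1 of these 5 (hsa-miR-7) was, beside 17.7%. In the Huh7 pair 0 of the 5 were at least 2-fold higher or lower, beside 7.42% higher and 38.5% lower in TPM and 15.3% and 24.8% in miRNA RPM. Their median log2 change of TPM was 2.57 in the Hep3B pair, beside 1.46 for all miRNAs tested, and -0.01 in the Huh7 pair, beside -0.67. With 5 members and 1 library per condition, nothing is read from these counts.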

How the data were processed

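SOAP was the aligner and NCBI 36.1 the genome build. Before that step the authors applied a minimum read length of 18 nt along with filters for contamination and redundancy. Annotation used miRBase release 17, with other small RNA classes taken out first. They deposited raw read counts per mature miRNA, 1 table per library. The version of SOAP is not given in the sources used here. Arms of miR-338 were read by name. TPM was computed here over the library totals that the study lists. Ratios have exact conditional binomial intervals and differences of ratios exact conditional intervals of the 2 by 2 table. Shares have Clopper-Pearson intervals and levels exact Poisson intervals. All are at 95%. Of these, the intervals of ratios and those of the 2 by 2 table without library sizes were checked on simulated data. Reads are not independent molecules, so intervals cover counting error only. A count of 0 was set to 3 for counts over all miRNAs. No p-value is given, since the 5p arm was chosen from these same comparisons and each line has 1 HCSC and 1 parent library. Library sizes by TMM (edgeR 4.0.16) and DESeq2 1.42.0 served as alternatives. Hairpin arms were paired as X-5p with X-3p and X with X*. Named miRNAs were both arms, miRNAs of the AATK locus, miRNAs sharing a seed, the 5 nearest patterns per arm, and members of the neural and glial list with at least 10 counts, the others being named only to account for the list. The comparison with miR-3065 by summed arms was added after its counts were seen. Members and lists were chosen with earlier results of these data known. Sequences come from RefSeq (GRCh38.p14), in which both arms of miR-338 and of miR-3065 matched by name, and gene positions from GENCODE release 29 (GRCh38). The count tables hold no positions. Python 3.11.15, scipy 1.17.1 and R 4.3.3 were used.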

Additional observations from a re-analysis of the deposited data

Results flagged for a closer look

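The log2 change of hsa-miR-338-5p differed between the lines in TPM, with the Hep3B pair larger by 1.65 and a counting interval that left out 0. With other library sizes this difference was below 0, but each counting interval took in 0. It was -0.63 with total miRNA counts (interval -1.59 to 0.33), -0.076 with TMM (interval -1.04 to 0.88) and -0.099 with DESeq2 size factors (interval -1.06 to 0.86). Hsa-miR-128 had log2 changes of 1.04 (Hep3B pair) and -0.98 (Huh7 pair), opposite in direction, and with miRNA reads as the base both were below 0 (-0.73 and -0.46). Neither difference was tested against variation between cultures.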

How the results depend on the processing

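Of 56 values under alternatives, 15 stayed within the interval of the reported value, or within 1.5 times for counts, 38 lay outside it and 3 reversed. The 38 include levels in miRNA RPM set against TPM, which is a change of unit. They also include numbers of miRNAs or hairpins under other entry filters, where the total changed too. The 3 are the difference between the pairs for the 5p arm, whose intervals under the alternatives took in 0. Both arms kept a log2 change above 0 in both pairs under all alternatives run. A fit of HCSCs against parents over both lines, with the line as a block, was not run, since the 5p arm was chosen from these comparisons and no test of them is given. No library could be left out, since each pair would lose a side. Depth limits the arms, with 15 to 26 reads per arm in the parent libraries, and the library size moved the Hep3B changes outside their counting intervals.

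With total miRNA counts as library size, hsa-miR-338-5p stood at 13.8, 44.4, 4.18 and 20.8 RPM in Hep3B, Hep3B-C, Huh7 and Huh7-C, and hsa-miR-338-3p at 14.9, 22.3, 2.61 and 8.65. In the Hep3B pair the log2 change of the 5p arm was then 1.69, with TMM 2.03 and with DESeq2 size factors 2.27. That of the 3p arm was 0.58, 0.93 and 1.16 in the same order. The difference between the pairs was -0.63, -0.076 and -0.099 for the 5p arm and -1.15, -0.60 and -0.62 for the 3p arm. These shifts follow from the ratio of library sizes alone.

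In the Hep3B pair, the number of miRNAs at least 2-fold higher was 320 in TPM, 84 with total miRNA counts, 118 with TMM, 138 with DESeq2 and 208 with at least 10 counts in both libraries. Those at least 2-fold lower were 24, 119, 84 and 69, and 98 with at least 1 count in either library. In the Huh7 pair, those higher were 32 in TPM, 66, 51 and 71 with the other library sizes, 102 with at least 1 count in either library and 20 with at least 10 in both. Those lower were 166 in TPM, 107 with total miRNA counts, 104 with DESeq2, 267 with at least 1 count and 97 with at least 10 in both. Hairpins with a larger arm difference than miR-338 numbered 28 of 97 in the Hep3B pair (28.9%). With at least 10 counts of each arm in both libraries they were 13 of 60 (21.7%). With at least 1 in either library they were 78 of 176 (44.3%). In the Huh7 pair they were 54 of 93 (58.1%), 33 of 66 (50%) and 106 of 163 (65.0%) under the same filters.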
